A study of Rattus norvegicus with 34 samples.

Results

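Fen1, Pold1, Pold3, Top2a and Tp53bp1 are 5 genes of DNA replication and of the response to DNA damage. They were followed across tissues of pregnant Wistar rats and their embryos after dosing of the dams with EMD 82571, which the series title calls a calcium sensitizer, or with retinoic acid, the vitamin A derivative that patterns the embryo and is teratogenic in excess. The genes were taken by the name of their probe on the PIQOR arrays, which are spotted cDNA arrays, and each had 1 probe. Only the spot files of batch C, 1 of the array batches described below, give names. The other arrays have numeric IDs, and there the probe at the same row and column was used. The 5 genes make up 5 of the 239 probes with a gene name, and all 5 passed the filter on dim probes.

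RNA of treated animals (Cy5) and vehicle RNA (Cy3) shared each of the 34 arrays, and the dyes were never swapped. A dye effect on a probe therefore cannot be told apart from a treatment effect shared by all groups. On day 12 of gestation, whole embryo and maternal liver had 2 arrays each for EMD 82571 at 50 mg/kg/day (the low dose), 2 for 150 mg/kg/day (the high dose) and 4 for retinoic acid. On day 20, maternal liver, embryo liver and embryo bone had 2 arrays for each of these 3 treatments, which gives 15 groups in all. Retinoic acid is 12 mg/kg/day in the protocol and 20 mg in the sample labels. Dams were dosed on days 6 to 11 or 6 to 17, and the protocol does not assign these windows to groups. The series text counts 5 control and 5 treated biological replicates. The labels do not say which arrays hold separate animals, so a p-value measures the spread between arrays, which may be technical.

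Array numbers form 3 sets, here named batches A, B and C. All day-12 arrays of EMD 82571 were in batch A, and the day-12 retinoic acid groups had 2 arrays in batch A and 2 in batch B. The embryo titles of these arrays carry a 20 in batch A and a 6 in batch B, and the labels do not explain this. On day 20, EMD 82571 was in batch C, while retinoic acid was in batch B for both livers and in a later session of batch C for bone. On that day compound cannot be told apart from batch or session. Arrays held from 604 to 976 unmarked spots, with a median signal over background from 1.19 to 5.35 in the treated channel and from 1.6 to 4.57 in the vehicle channel. Between arrays of 1 group, the log2 ratios of all probes correlated with an r from -0.198 to 0.979, and within a batch the lowest was 0.588. Of the 170 values of the 5 genes, 165 had both channels above background, and in the other 5 the treated channel was below it.

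DNA polymerase delta copies the lagging strand. Pold1 is its catalytic subunit, which also proofreads, and Pold3 is an accessory subunit that helps the enzyme stay on its template and acts in break-induced repair. Fen1 is the flap endonuclease that trims the 5′ flaps left between Okazaki fragments and also serves in base excision repair. Top2a is the topoisomerase that untangles sister chromatids, and its RNA peaks late in the cell cycle, so that it is widely used as a sign of dividing cells. Tp53bp1 is an adaptor protein at DNA double-strand breaks, where it favours end joining. Fetal liver is a site of blood formation with many dividing cells, while adult liver is largely quiescent.

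The sequence before the Top2a start site is shown because Top2a had the widest span of levels between tissues and the largest responses of the 5 genes. The 250 bases are those of RefSeq on build GRCr8, chr10:84473094-84473343, minus strand, written 5′ to 3′ along the gene. Capitals mark CCAAT read on the opposite strand (ATTGG) and TTTGAA read on the opposite strand (TTCAAA).
Top2a: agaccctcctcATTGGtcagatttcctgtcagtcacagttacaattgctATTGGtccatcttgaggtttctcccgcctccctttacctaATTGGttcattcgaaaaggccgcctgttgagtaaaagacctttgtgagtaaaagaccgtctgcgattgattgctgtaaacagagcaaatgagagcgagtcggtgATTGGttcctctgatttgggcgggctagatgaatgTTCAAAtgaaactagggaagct
Both strands were searched for CCAAT, which is the core of the CCAAT box, for TTTGAA, which is a cell cycle element, and for TTTNNCGC, written for E2F sites. No match of one motif overlapped a match of another. The Top2a window held CCAAT 4 times and TTTGAA 1 time. Of 33469 rat promoters of the same length, 34% held CCAAT at least 1 time, 0.565% held it at least 4 times, and 16.2% held TTTGAA. In human cells, inverted CCAAT boxes of this gene's promoter are known to bind the factor NF-Y. TTTNNCGC was in 4.11% of promoters and in none of the 5 windows. The windows of Fen1, Pold3 and Tp53bp1 held none of the 3 motifs and that of Pold1 held CCAAT 1 time. These 4 windows lie inside the annotated span of their gene, 477 to 27969 bases from its end at the start side, and are not printed.

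In vehicle RNA, 4 of the 5 genes had their highest median in the day-12 embryo, and Pold3 had its lowest there. Levels below are log2 intensities of the Cy3 channel, scaled between arrays, and each is set against the same probe only. They were tested with limma with array batch as a term. Bulk RNA cannot tell fewer cells of a type from less RNA in each cell. Serpina1, an alpha-1 antitrypsin gene of hepatocytes, had median levels of 12.6 in day-12 and 13.4 in day-20 maternal liver, 13.5 in embryo liver, 9.71 in embryo bone and 7.79 in the embryo. Spp1, the bone matrix protein osteopontin, had a median of 13.8 in embryo bone and at most 8.00 elsewhere. Embryo liver was low in some hepatocyte genes. Its median of the cytochrome Cyp2e1 was 8.14, against 14.2 in day-12 and 13.2 in day-20 maternal liver, and that of Cyp2c12 was 6.96, against 12.3 and 12.5. The liver transcription factor Hnf4a had 10.6 in embryo liver and at most 7.37 in embryo and bone. The patterning gene Hoxa2 had its highest median in the embryo, at 9.14, against 6.44 to 7.01 elsewhere.

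Top2a had the widest range. Its level in the 8 arrays of the day-12 embryo ran from 12.43 over a median of 12.96 to 13.34. In the 6 arrays of embryo liver it ran from 11.30 over 11.42 to 12.04, and in the 6 of embryo bone from 9.78 over 10.03 to 10.42. Maternal liver was lowest, from 7.63 over 8.08 to 8.80 on day 12 (8 arrays) and from 6.63 over 6.89 to 7.94 on day 20 (6 arrays). The 5 tissues therefore kept separate ranges, except for the overlap of both maternal livers. The embryo exceeded maternal liver on day 12 by 4.78 ± 0.11 (SE), a 27.4-fold difference (adjusted p = 7.07e-29). Embryo liver exceeded day-20 maternal liver 21.0-fold, by 4.39 ± 0.13 (adjusted p = 1.59e-25). Bone was below embryo liver by 1.22, or 2.33-fold (adjusted p = 8.63e-10). Day-20 maternal liver was 1.91-fold below that of day 12 (-0.93 ± 0.18, adjusted p = 0.000182), a call that was lost within batch B alone.

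Fen1 and Pold1 had the same order at the top and less span. Fen1 had medians of 9.73 in the embryo and 9.36 in embryo liver, which did not differ beyond their spread (0.21, 95% interval -0.33 to 0.75). Its medians were 7.76 in bone, 7.51 in day-20 and 7.26 in day-12 maternal liver, and no pair of these 3 passed the test. The embryo was above maternal liver on day 12 by 2.30 ± 0.17 (4.93-fold, adjusted p = 7.74e-15) and embryo liver above day-20 maternal liver by 1.74 ± 0.19 (3.35-fold, adjusted p = 9.43e-10). Pold1, the catalytic subunit, had medians of 9.56 in the embryo, 8.95 in embryo liver, 8.22 in bone, 7.81 in day-20 and 7.46 in day-12 maternal liver. The embryo was 4.82-fold above maternal liver on day 12 (2.27 ± 0.15, adjusted p = 3.46e-16), and embryo liver 2.36-fold above it on day 20 (1.24 ± 0.17, adjusted p = 9.32e-08). The 2 maternal livers did not differ beyond their spread (-0.20, 95% interval -0.67 to 0.28), nor did bone and day-12 maternal liver.

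Pold3 had another order from its own catalytic partner. Its medians were 10.64 in embryo liver, 10.61 in day-20 and 10.22 in day-12 maternal liver, 8.43 in bone and 7.66 in the embryo. All 3 livers thus lay above bone and embryo. The embryo was 5.63-fold below maternal liver on day 12 (-2.49 ± 0.13, adjusted p = 1.14e-18), and bone was 3.94-fold below embryo liver (-1.98 ± 0.16, adjusted p = 3.11e-13). Embryo liver and day-20 maternal liver differed by 0.03 only (95% interval -0.28 to 0.33). The difference between the 2 maternal livers, 0.60 (adjusted p = 0.0496), did not hold under most alternatives. Over the 34 arrays, the vehicle level most like that of Pold3 among 129 probes was that of Egfr, the epidermal growth factor receptor (Pearson r = 0.97), and next that of A2m, the plasma protease inhibitor alpha-2-macroglobulin (0.92). The level of Top2a went with that of Rfc3, a subunit of the clamp loader that places the PCNA ring for polymerase delta (0.97), and the level of Pold1 did so too (0.94). These r are descriptions over arrays that share 5 tissues.

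Tp53bp1 was highest in the embryo, with a median of 10.66, then in bone with 8.71, embryo liver with 8.03, and day-12 and day-20 maternal liver with 7.81 and 7.09. The embryo was 6.38-fold above maternal liver on day 12 (2.67 ± 0.18, adjusted p = 6.52e-16), and bone was 1.67-fold above embryo liver (0.74 ± 0.22, adjusted p = 0.00289), the reverse of the other 4 genes. With array batch as a term, the difference between embryo and bone was 0.64 and did not pass (95% interval -0.02 to 1.31). The day-12 tissues shared no batch with bone. This difference, and those of Fen1 and Pold1 between bone and a day-12 tissue, therefore rest on the batch term. The Tp53bp1 median of the embryo was 10.74 in batch A and 9.67 in batch B. In the 4 planned comparisons of vehicle level, all 5 members were called for the embryo against day-12 maternal liver (78% of all probes), 4 for embryo liver against day-20 maternal liver (51%), 5 for bone against embryo liver (68.6%) and 2 for the maternal livers of day 20 against day 12 (13.8%). In the other 6 pairs, added later, 5 members were called for the embryo against day-20 maternal liver (67.2% of all probes), 4 against embryo liver (52.2%) and 4 against bone (47%). Day-12 maternal liver differed in 5 from embryo liver (44.8%) and in 3 from bone (67.2%), and day-20 maternal liver in 4 from bone (76.2%). The plot of vehicle levels shows each array.

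**Figure D1:**
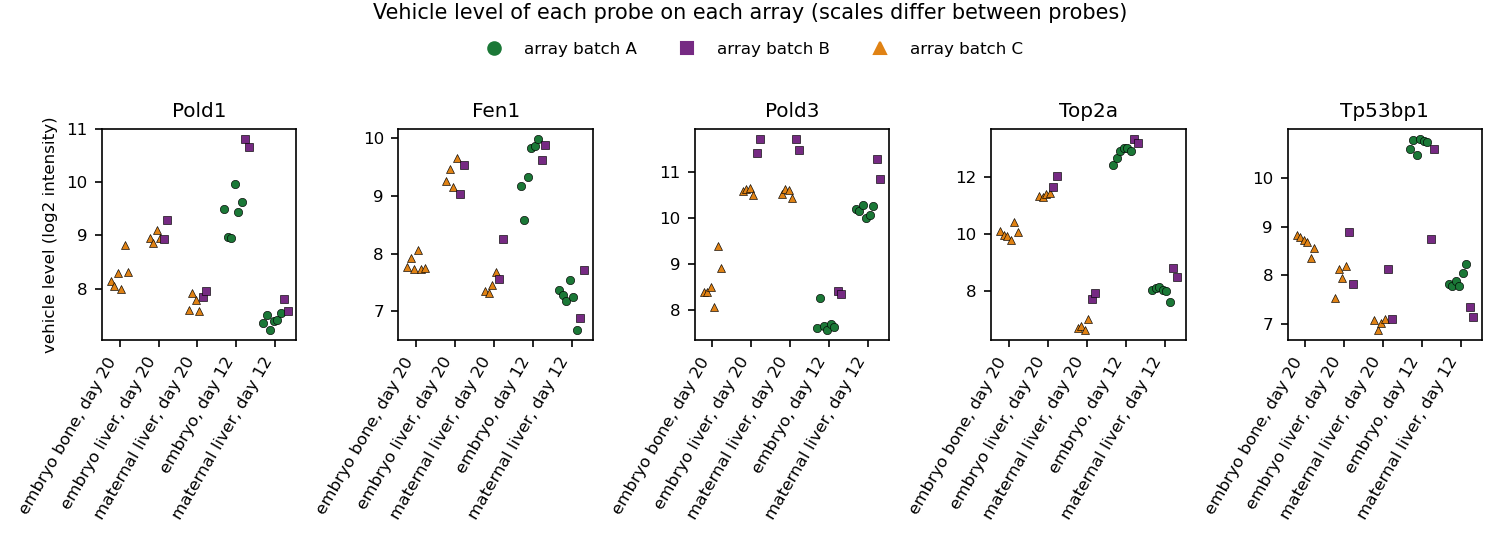
Vehicle level (log2 intensity, Cy3 channel) of each gene's probe on each array by tissue and day, 1 panel per gene with its own scale, with colour and marker for array batch. Top2a runs from 6.63 in day-20 maternal liver to 13.34 in the embryo, and Pold3 is the gene whose 3 livers lie above bone and embryo.

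Treatment effects are given as the log2 ratio of treated over vehicle on an array, and a gene is called where limma's adjusted p over all probes is under 0.05. The 5 genes had 21 calls in the 15 groups, 7 of them higher and 14 lower, out of 75 possible. Between 6.9% and 53.2% of all probes were called in these groups. Pold1 had 7 calls, Pold3 6, Fen1 5, Top2a 2 and Tp53bp1 1.

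**Figure D2:**
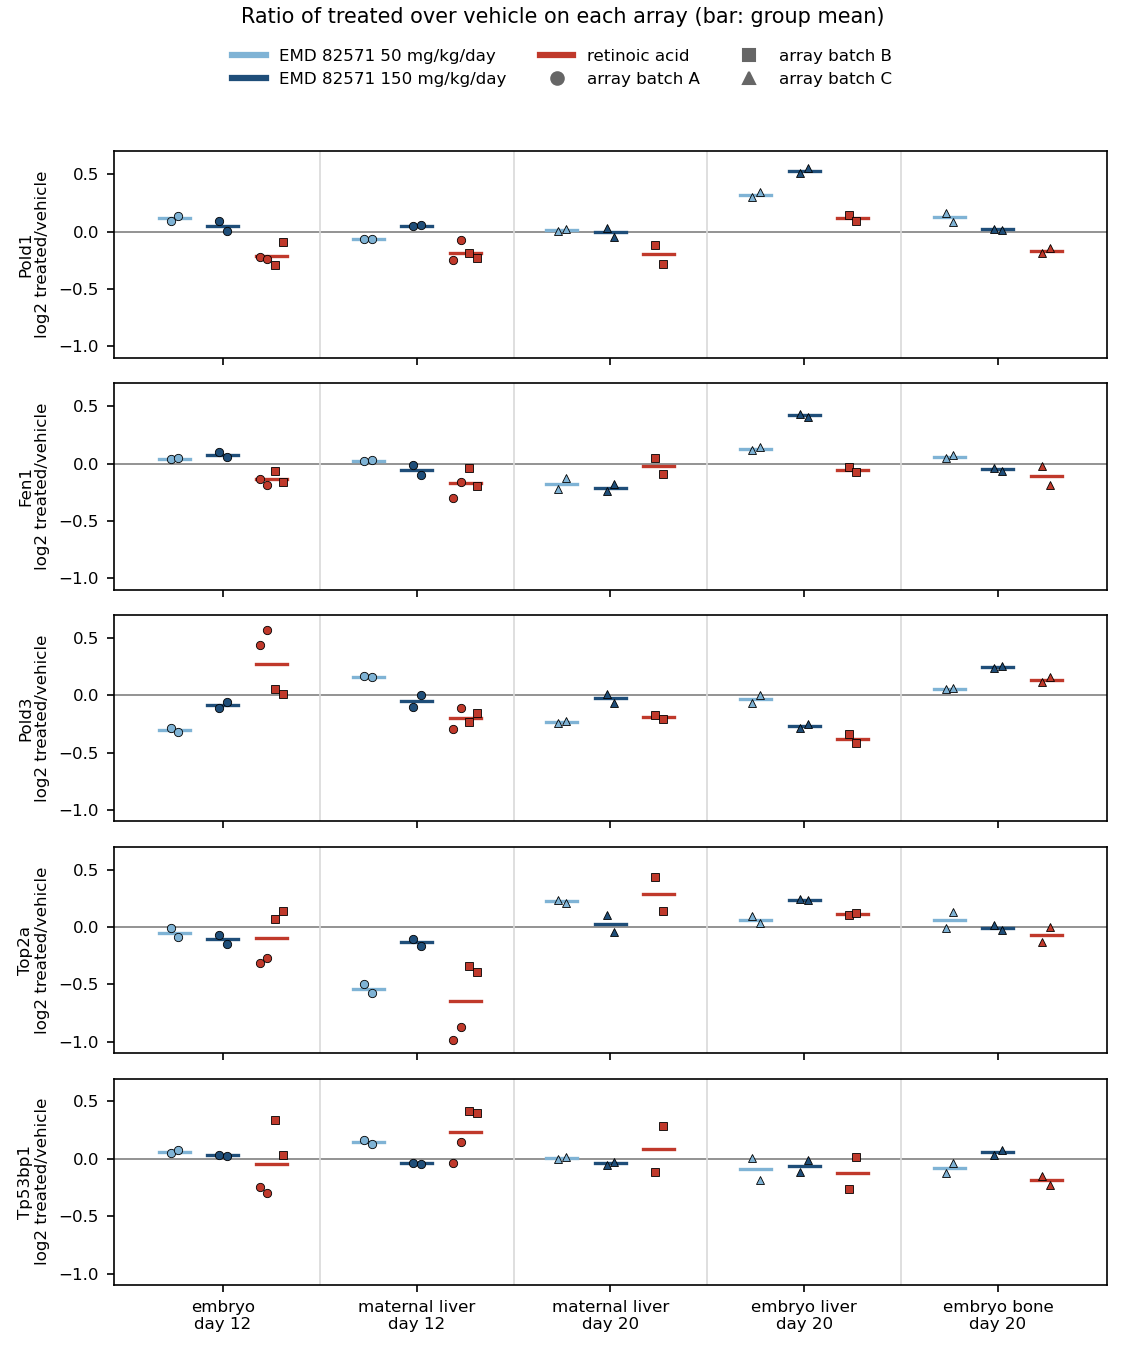
Log2 ratio of treated over vehicle on each array (points) with the group mean (bars), 1 row per gene on a common scale, by tissue and treatment, with marker shape for array batch. Pold1 and Fen1 stand highest in embryo liver at the high dose of EMD 82571, at 0.53 and 0.42, and Top2a lowest in day-12 maternal liver with retinoic acid, at -0.64.

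In embryo liver on day 20, the high dose of EMD 82571 went with higher RNA for the lagging-strand enzymes Pold1 and Fen1. Pold3 RNA was lower at the high dose and with retinoic acid, with limits given below. Pold1 had ratios of 0.30 and 0.34 at the low dose, 0.51 and 0.56 at the high dose, and 0.15 and 0.09 with retinoic acid. All 6 arrays were above 0, and the 3 treatments did not overlap. Pold1 rose 1.25-fold at the low dose (0.32 ± 0.05, adjusted p = 8.7e-05) and 1.45-fold at the high dose (0.53 ± 0.05, adjusted p = 1e-08). Without normalization within arrays the low-dose value of Pold1 turned sign (-0.107, adjusted p = 0.669) and its high-dose call was lost (0.34, adjusted p = 0.499), and in the deposited log2 ratios the low-dose call was lost (0.281, adjusted p = 0.0719). With retinoic acid it rose by 0.12 (1.09-fold, adjusted p = 0.0426), and this call was lost with either array left out. Of the 5 genes, 1 was called at the low dose (13% of all probes), 3 at the high dose (38.2%) and 2 with retinoic acid (52.2%).

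Fen1 had ratios of 0.12 and 0.14 at the low dose, 0.43 and 0.41 at the high dose, and -0.03 and -0.07 with retinoic acid. The high-dose arrays stood apart from the other 4. Fen1 rose 1.34-fold at the high dose (0.42 ± 0.05, adjusted p = 8.99e-07), a call that was lost without normalization (0.237, adjusted p = 0.568) and in the deposited log2 ratios (0.315, adjusted p = 0.0742). For Fen1, the low dose (0.13, adjusted p = 0.0949) and retinoic acid (-0.05, adjusted p = 0.406) did not pass. The step between the doses was 0.29 ± 0.07 (adjusted p = 0.00872), the 1 call of the 5 genes among 25 differences between doses. Of all probes, 10.9% were called for this step in embryo liver, 1.83% in the embryo, 7.79% and 2.52% in maternal liver of day 12 and day 20, and 5.04% in bone. Without replicate 1 of either dose its adjusted p was 0.0879 or 0.074. For Pold1 the step was 0.21 ± 0.07 (adjusted p = 0.0529).

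Pold3, the accessory subunit, had ratios of -0.07 and 0.01 at the low dose, -0.28 and -0.25 at the high dose, and -0.34 and -0.41 with retinoic acid. The high dose and retinoic acid lay below 0 on each array. Pold3 fell by 0.27 ± 0.08 at the high dose (1.20-fold, adjusted p = 0.0133) and by 0.38 ± 0.08 with retinoic acid (1.30-fold, adjusted p = 0.000837). The call at the high dose was lost with either array left out and with array batch as a random block (adjusted p = 0.0725). It was also lost without normalization within arrays (-0.435, adjusted p = 0.403) and in the deposited log2 ratios (-0.108, adjusted p = 0.697). In the deposited log2 ratios, the retinoic acid value of Pold3 was 0.00242. Top2a had 0.09 and 0.03 at the low dose, 0.24 and 0.23 at the high dose, and 0.11 and 0.13 with retinoic acid. None of these passed (adjusted p = 0.841, 0.123 and 0.417), but in the deposited log2 ratios Top2a was called higher with retinoic acid (0.499, adjusted p = 0.00156). Tp53bp1 had 0.01 and -0.19 at the low dose, -0.12 and -0.01 at the high dose, and -0.26 and 0.02 with retinoic acid, and none passed.

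The other genes of replication, repair and the damage response on the array were counted from a list of 105 genes and related probe names, of which 7 were measured. In embryo liver at the high dose, 5 of the 7 rose and 0 fell, with a median of 0.298 against -0.0235 over all probes. Of all probes in embryo liver, 38.2% were called at the high dose, 13% at the low dose and 52.2% with retinoic acid. Of the 7, Rfc3, Rfc5 and Rad17 were added with their values known, and without them 2 of 4 rose, with a median of 0.275. The count over 7 is therefore a description of genes partly chosen on these data. Rfc3 rose by 0.42 ± 0.06 (adjusted p = 3.55e-06), Rad17, a clamp loader subunit of the damage checkpoint, by 0.29 ± 0.05 (adjusted p = 6.17e-05), and the clamp loader subunit Rfc2 by 0.31 ± 0.06 (adjusted p = 9.95e-05). Rfc5, another clamp loader subunit, rose by 0.31, and the growth arrest gene Gadd45a by 0.30. At the low dose, 1 rose (Rad17, by 0.21). With retinoic acid, 1 rose and 3 fell: Rfc5 (0.26) was higher, and Gadd45a (-0.41), Rfc3 (-0.25) and the stress gene Ddit3 (-0.56) lower. Top2b, the second topoisomerase of this type, was called in none of the 3.

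**Figure D3:**
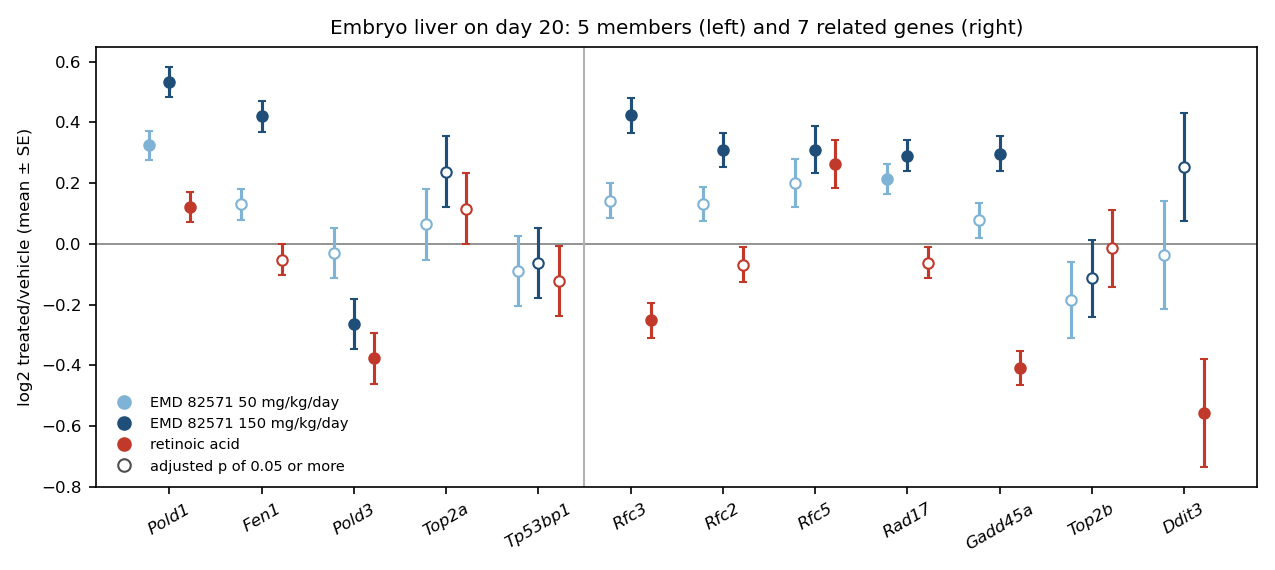
Mean log2 ratio of treated over vehicle (± SE from the fit over 34 arrays) in day-20 embryo liver for the 5 genes (left) and the 7 related genes (right), by treatment, with open points where the adjusted p was 0.05 or more. At the high dose Pold1, Fen1 and Rfc3 reach 0.53, 0.42 and 0.42, while Pold3 lies at -0.27.

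Cell markers moved beside these values in embryo liver. Of 6 hepatocyte markers, 1 was higher and 2 were lower at the high dose, with a median of -0.189. Their summed level was 12577 to 12951 in the treated channel and 14613 to 15197 in the vehicle channel. Of the endothelial markers, 1 of 4 was higher, 2 of 4 fibroblast and smooth muscle markers were lower, 1 of 3 leukocyte markers was lower, and 2 of 6 cartilage and bone markers were higher. None of the 5 listed erythroid markers was measured. With retinoic acid, 1 of 6 hepatocyte markers was higher and 0 lower. Endothelial markers were higher in 3 of 4 (median 0.351), and the osteoclast gene Mmp9 was higher (0.356). Cartilage and bone markers were lower in 3 of 4 (median -0.513), but their vehicle medians in embryo liver were low, from 6.41 to 6.76. Of the fibroblast and smooth muscle markers, 1 of 4 was lower, and 0 of 2 leukocyte markers were called. The part of cell makeup in the results for embryo liver was not tested.

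Between compounds in embryo liver, the high dose exceeded retinoic acid by 0.47 ± 0.07 for Fen1 (adjusted p = 1.89e-05) and by 0.41 ± 0.07 for Pold1 (adjusted p = 4.88e-05). For Pold3 the difference was 0.11 (95% interval -0.13 to 0.35) and did not pass. These are 2 calls of 5, where 40.5% of all probes were called, and here compound cannot be told apart from array batch. The doses of the compounds differ.

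Embryo liver also differed from the dam's liver of the same day in its response. The high-dose response was larger in embryo liver than in maternal liver by 0.63 ± 0.07 for Fen1 (adjusted p = 5.62e-07) and by 0.54 ± 0.07 for Pold1 (adjusted p = 2.57e-06), 2 calls of 5 beside 29.8% of all probes. At the low dose the differences were 0.31 ± 0.07 for both (adjusted p = 0.00621 for Fen1 and 0.00399 for Pold1), again 2 of 5, beside 13.4% of all probes. Both low-dose differences turned sign without normalization within arrays (-0.127 for Fen1 and -0.183 for Pold1). That for Fen1 was lost without replicate 1 of maternal liver (adjusted p = 0.103) and without replicate 2 of embryo liver (0.0575). With retinoic acid Pold1 alone was called (0.32 ± 0.07, adjusted p = 0.00174), beside 27.6% of all probes.

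Top2a had both of its calls against vehicle in day-12 maternal liver. On day 12 it had ratios of -0.50 and -0.58 at the low dose, -0.10 and -0.17 at the high dose, and -0.98, -0.87, -0.34 and -0.39 with retinoic acid, where the first 2 arrays were in batch A and the last 2 in batch B. All 8 arrays were below 0, and with retinoic acid the batches did not overlap. Top2a fell 1.56-fold with retinoic acid (-0.64 ± 0.08, adjusted p = 2.38e-06), by 0.93 in batch A alone (adjusted p = 4.44e-11) and by 0.36 in batch B alone (adjusted p = 3.83e-05). It fell 1.45-fold at the low dose (-0.54 ± 0.12, adjusted p = 0.002), and that call was lost without replicate 2 (adjusted p = 0.0854). The high dose did not pass (-0.13, adjusted p = 0.526).

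The order of the doses for Top2a, with the larger fall at the lower dose, was not a call in itself (high minus low 0.40 ± 0.17, adjusted p = 0.175). With array batch as a random block its adjusted p was 0.0175. In the levels behind these ratios, Top2a had 7.54 and 7.54 in the low-dose channel against 8.04 and 8.12 in the vehicle channel of the same arrays. With retinoic acid in batch A it had 7.02 and 6.77 against 8.00 and 7.63 in vehicle, and in batch B 8.46 and 8.12 against 8.80 and 8.51 in vehicle. With retinoic acid, treated and vehicle levels overlapped over the 4 arrays but not within either batch.

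**Figure D4:**
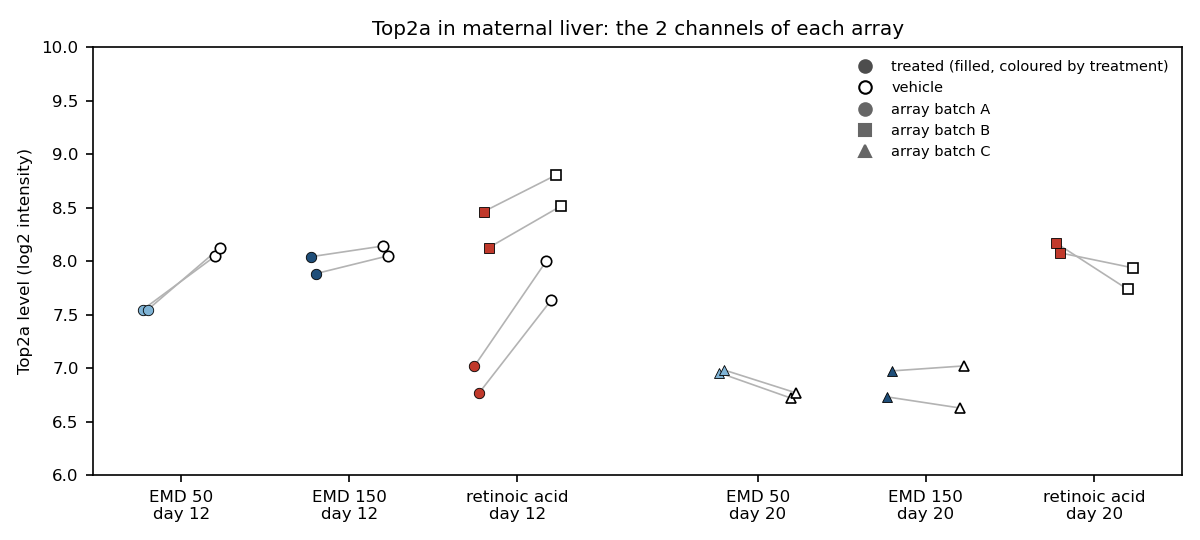
Top2a level (log2 intensity) in the treated (filled) and vehicle (open) channels of each maternal liver array, joined by a line, by treatment and day, with marker shape for array batch. On day 12 each line runs upward to vehicle, and on day 20 the treated level is the higher one on 5 of the 6 arrays.

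On day 20 Top2a in maternal liver had 0.24 and 0.21 at the low dose, 0.10 and -0.05 at the high dose, and 0.44 and 0.14 with retinoic acid. No group passed (adjusted p = 0.337, 0.967 and 0.0999). The day-20 response exceeded that of day 12 by 0.76 ± 0.17 at the low dose (adjusted p = 0.00167) and by 0.93 ± 0.14 with retinoic acid (adjusted p = 4.07e-05), where 13.4% and 21% of all probes were called. At the high dose the difference was 0.16 (95% interval -0.18 to 0.50), with 0 calls of 5 beside 12.9% of all probes. The difference at the low dose spans batch C on day 20 and batch A on day 12, so that day cannot be told apart from batch there. With retinoic acid, day 20 was in batch B, and the difference was 0.651 against the day-12 arrays of that batch (adjusted p = 2.56e-06) and 1.21 against those of batch A.

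The other 4 genes had group means from -0.23 to 0.23 in maternal liver. With retinoic acid on day 12, all 5 genes were called, 4 lower and 1 higher, where 29.3% of all probes were called (15.9% lower and 13.4% higher). Fen1 had -0.30, -0.16, -0.04 and -0.20, Pold1 -0.25, -0.07, -0.19 and -0.23, and Pold3 -0.29, -0.11, -0.24 and -0.15, so each of the 12 values was below 0. Fen1 fell by 0.17 ± 0.04 (adjusted p = 0.00104), Pold1 by 0.18 ± 0.03 (adjusted p = 0.000312) and Pold3 by 0.20 ± 0.06 (adjusted p = 0.0141). The treated channel was below background on 1 of the 4 arrays for Fen1 and on 2 for Pold1. The Pold3 call was lost without replicate 1 (adjusted p = 0.0692), without replicate 3 (0.058), and with batch as a random block (0.0951).

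Tp53bp1 had -0.04 and 0.14 in batch A and 0.41 and 0.40 in batch B with retinoic acid on day 12, and 1 of the batch B values rests on 1 spot. It rose by 0.23 ± 0.08 (1.17-fold, adjusted p = 0.0357). Batch A alone gave 0.05 (adjusted p = 0.594) and batch B alone 0.41 (adjusted p = 0.000271), and the call was lost without replicate 3 or replicate 4 (adjusted p = 0.212 and 0.192) and with batch as a random block (0.102). Hepatocyte markers were higher in 3 of 6 in the same group, with a summed level of 27618 to 45261 in the treated and 22190 to 35582 in the vehicle channel. Endothelial markers were higher in 2 of 4 and leukocyte markers in 0 of 2. Their part in the results for maternal liver was not tested.

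The low and high doses on day 12 gave 1 call (Top2a) and 0 calls in maternal liver, where 14.3% and 21.1% of all probes were called. On day 20, Fen1 had -0.22 and -0.13 at the low dose and -0.24 and -0.18 at the high dose. It fell by 0.18 ± 0.05 (adjusted p = 0.0258) and by 0.21 ± 0.05 (adjusted p = 0.0111), the 1 call of 5 in each, where 10.1% and 7.95% of all probes were called. Both calls were lost with either array left out and with batch as a random block (adjusted p = 0.273 and 0.18). With retinoic acid on day 20, Pold1 had -0.11 and -0.28 and fell by 0.20 ± 0.05 (adjusted p = 0.00634), the 1 call of 5 beside 18.8% of all probes. In 1 of these 2 arrays its treated channel was below background, and without that array (replicate 2) its adjusted p was 0.375.

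Of the related genes, Gadd45a was lower in maternal liver with EMD 82571 at both doses and on both days, with log2 ratios from -0.23 to -0.18. It was lower with retinoic acid on day 20 too (-0.19, adjusted p = 0.0228), as was Rfc2 (-0.23, adjusted p = 0.00598). Rad17 was higher at the low dose on day 12 (0.22, adjusted p = 0.00332). With retinoic acid on day 12, Rfc2 (-0.25, adjusted p = 5.37e-05) and Rfc3 (-0.18, adjusted p = 0.00176) were lower and Rad17 (0.12, adjusted p = 0.015) higher. That is 1 of 7 higher and 2 lower, where 29.3% of all probes were called, with a median of -0.0635 against -0.0299 over all probes. Without the 3 added genes it is 0 of 4 higher and 1 lower, with a median of 0.00889. The high dose exceeded retinoic acid in day-12 maternal liver for Pold1 (0.24 ± 0.06, adjusted p = 0.00894) and Top2a (0.51 ± 0.14, adjusted p = 0.0181), 2 calls of 5 beside 13.4% of all probes. For Top2a this was 0.792 against retinoic acid of batch A, the batch of the high dose, and 0.231 against batch B (adjusted p = 7.41e-08 and 0.0318). Against batch B alone, Tp53bp1 (-0.449, adjusted p = 0.00345) and Pold3 (0.145, adjusted p = 0.0345) were called too. Leaving out either array of the high dose ended both calls, and leaving out replicate 1 or 2 of retinoic acid ended that of Top2a (adjusted p = 0.0505 and 0.0512). On day 20 no gene was called between compounds in maternal liver (0 of 5, beside 7.86% of all probes), and Fen1 differed there by -0.19 (95% interval -0.34 to -0.04, adjusted p = 0.146).

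In the day-12 embryo, retinoic acid went with slightly lower Fen1 and Pold1 and higher Pold3. Pold1 had -0.22 and -0.24 in batch A and -0.29 and -0.09 in batch B. All 4 were below 0, and Pold1 fell 1.16-fold (-0.21 ± 0.03, adjusted p = 0.000127), by 0.23 in batch A alone and 0.19 in batch B alone (adjusted p = 0.000159 and 0.00198). Fen1 had -0.13, -0.19, -0.06 and -0.16 and fell by 0.14 ± 0.04 (adjusted p = 0.00661), but not in batch B alone (adjusted p = 0.0609) or with batch as a random block (0.08). Cell markers moved in the same group. Of the fibroblast and smooth muscle markers, 3 of 4 were higher (median 0.365), with a summed level of 1954 to 3711 in the treated and 1927 to 2487 in the vehicle channel. Of the hepatocyte markers, 3 of 6 were higher and 1 was lower (median 0.267). Their summed level was 1044 to 1525 in the treated and 804 to 983 in the vehicle channel. Their vehicle medians in the embryo were low, from 6.94 for Foxa3 to 7.79 for Serpina1. Cyp7a1 was above background there on 5 of 7 arrays and Cyp2e1 on 6 of 8. Endothelial markers were higher in 2 of 4, and cartilage and bone markers lower in 2 of 5. Their part in the results for the embryo was not tested.

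Pold3 had 0.44 and 0.57 in batch A and 0.05 and 0.01 in batch B. It rose by 0.27 ± 0.06 over the 4 arrays (adjusted p = 0.00162), by 0.50 in batch A alone (adjusted p = 2.37e-09) and by 0.03 in batch B alone, which did not pass (adjusted p = 0.511). Top2a had -0.31 and -0.27 in batch A and 0.07 and 0.14 in batch B, with no call over both (-0.09, adjusted p = 0.409) and one in batch A alone (-0.29, adjusted p = 0.000172). Tp53bp1 had -0.24 and -0.30 in batch A and 0.34 and 0.03 in batch B, with the same pattern (-0.27 in batch A alone, adjusted p = 0.00261, and 0.19 in batch B alone, adjusted p = 0.0615). These are 3 calls of 5 with retinoic acid, where 33.2% of all probes were called.

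EMD 82571 gave 1 call in the embryo. Pold3 had -0.29 and -0.32 at the low dose, against -0.11 and -0.06 at the high dose. It fell by 0.30 ± 0.08 at the low dose (1.23-fold, adjusted p = 0.0148), the 1 call of 5 beside 15.1% of all probes, and this was lost with either array left out. None of the 5 was called at the high dose (0 of 5), beside 6.9% of all probes. Fen1 (0.04 and 0.05, then 0.10 and 0.06), Pold1 (0.10 and 0.14, then 0.10 and 0.01) and Tp53bp1 (0.05 and 0.08, then 0.04 and 0.02) were above 0 on each array at the low and then the high dose, and none passed. Top2a had -0.01 and -0.09 at the low dose and -0.06 and -0.15 at the high dose. In the deposited log2 ratios the Top2a means had the opposite sign, 0.466 and 0.343 (adjusted p = 0.0028 and 0.0269).

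The high dose exceeded retinoic acid in the embryo by 0.26 ± 0.06 for Pold1 (adjusted p = 0.00838) and by 0.21 ± 0.06 for Fen1 (adjusted p = 0.032), and lay below it by 0.36 ± 0.10 for Pold3 (-0.36, adjusted p = 0.0262). These are 3 of 5, where 9.05% of all probes were called. EMD 82571 was in batch A here. Against retinoic acid of batch A alone, Pold3 differed by -0.592 (adjusted p = 6.27e-08), and Tp53bp1 was called too (0.301, adjusted p = 0.0208). Against batch B alone, the Pold3 call was lost (-0.12, adjusted p = 0.0846) and Top2a was called (-0.214, adjusted p = 0.0484), while Pold1 and Fen1 were called against either batch. Without replicate 1 of the high dose none of the 3 passed (adjusted p = 0.247 for Fen1, 0.163 for Pold1 and 0.208 for Pold3). Without replicate 2 of the high dose or replicate 2 of retinoic acid, Fen1 and Pold3 did not pass (adjusted p = 0.0603 to 0.115), nor did Pold3 without replicate 1 of retinoic acid (0.0666). Of the related genes, Ddit3 (0.54, adjusted p = 0.00252) and Gadd45a (0.12, adjusted p = 0.0224) were higher and Rfc2 (-0.11, adjusted p = 0.0406) lower with retinoic acid. The low dose had 1 lower, Gadd45a (-0.27, adjusted p = 0.00349), and the high dose had none.

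The embryo and the dam's liver were set against each other on day 12. With retinoic acid, the response of the embryo exceeded that of maternal liver by 0.55 ± 0.12 for Top2a (adjusted p = 0.00127) and by 0.47 ± 0.08 for Pold3 (adjusted p = 0.000279), beside 24.6% of all probes. For Top2a this was 0.634 in batch A alone and 0.472 in batch B alone (adjusted p = 1.24e-06 and 0.000105). For Pold3 it was 0.706 and 0.226 (adjusted p = 4.58e-09 and 0.00172). Tp53bp1 was called in batch A alone (-0.325, adjusted p = 0.00981). At the low dose Pold3 differed by -0.47 ± 0.12 (adjusted p = 0.00869), with ratios of -0.29 and -0.32 in the embryo and 0.17 and 0.16 in maternal liver that did not overlap. This was the 1 call of 5 beside 12.4% of all probes, and it was lost when replicate 2 of the embryo or either array of maternal liver was left out (adjusted p = 0.0592 to 0.0691). The Pold3 ratio at the low dose was also lower in day-20 than in day-12 maternal liver (-0.40 ± 0.12, adjusted p = 0.0209), with -0.24 and -0.22 on day 20 against 0.17 and 0.16 on day 12. Leaving out any of these 4 arrays ended that call. The day-20 arrays were in batch C and the day-12 arrays in batch A, so day cannot be told apart from batch. Of all probes, 13.4% were called in this comparison. At the high dose 0 of 5 differed between embryo and maternal liver, beside 16.4% of all probes.

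In embryo bone on day 20 the group means of the 5 genes lay between -0.19 and 0.25. Pold3 had 0.06 and 0.06 at the low dose, 0.24 and 0.26 at the high dose, and 0.11 and 0.16 with retinoic acid, all above 0. It rose by 0.25 ± 0.08 at the high dose (1.19-fold, adjusted p = 0.0274), the 1 call of 5 beside 30.3% of all probes, which was lost with either array left out and with batch as a random block (adjusted p = 0.12). Pold1 had 0.16 and 0.09 at the low dose, 0.02 and 0.02 at the high dose, and -0.19 and -0.14 with retinoic acid. It fell by 0.16 ± 0.05 with retinoic acid (1.12-fold, adjusted p = 0.00661), the 1 call of 5 beside 53.2% of all probes, and lost that call without replicate 1 (adjusted p = 0.117) and with batch as a random block (0.0719). The low dose had 0 calls of 5 beside 12.2%.

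Cell markers moved more than the 5 genes in bone. At the high dose the osteoclast gene Mmp9 was lower (-1.1), with 1671 to 1677 in the treated and 3569 to 3610 in the vehicle channel. All 3 embryo patterning genes were higher (median 1.32), with a summed level of 778 to 794 in the treated and 358 to 373 in the vehicle channel. Of the cartilage and bone markers 3 of 6 were higher and 1 was lower (median 0.492), and 2 of 4 fibroblast and smooth muscle markers were lower. Hepatocyte markers were lower in 1 of 6, with a summed level of 541 to 610 in the treated and 1259 to 1503 in the vehicle channel. With retinoic acid, 2 of 3 leukocyte markers were lower (median -0.503), as were 2 of 6 cartilage and bone markers. Their part in the results for bone was not tested.

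Fen1 had -0.02 and -0.19 with retinoic acid in bone (-0.11, adjusted p = 0.0851), and Top2a had 0.02 and -0.03 at the high dose and -0.13 and 0.00 with retinoic acid. In the deposited log2 ratios, Top2a was called higher in bone with retinoic acid (0.334, adjusted p = 0.0119). The Pold1 value there was 0.0751, and its call was lost (adjusted p = 0.422). Between compounds Pold1 alone was called (0.19 ± 0.07, adjusted p = 0.0241), beside 63.7% of all probes, and not without either array of the high dose or replicate 1 of retinoic acid (adjusted p = 0.0748 to 0.111). Of the 7 related genes, 1 was higher at the high dose, Gadd45a (0.27, adjusted p = 0.000893), and none was called at the low dose or with retinoic acid.

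Bone and embryo liver responded in opposite order for the polymerase delta subunits. At the high dose the response of bone lay below that of embryo liver by 0.51 ± 0.07 for Pold1 (-0.51, adjusted p = 4.61e-06) and by 0.47 ± 0.07 for Fen1 (-0.47, adjusted p = 2.74e-05), and above it by 0.51 ± 0.12 for Pold3 (adjusted p = 0.00154). These are 3 of 5, beside 39.2% of all probes. With retinoic acid Pold1 again differed by -0.29 ± 0.07 (adjusted p = 0.00199) and Pold3 by 0.51 ± 0.12 (adjusted p = 0.00109), 2 of 5 beside 46.9%. At the low dose 0 of 5 were called, beside 10.9%, and the differences were -0.20 for Pold1 and 0.09 for Pold3. For retinoic acid the 2 tissues lay in different batches.

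The mean log2 ratios of Fen1 and Pold1 over the 15 groups had a Pearson r of 0.81. Both genes were highest in embryo liver at the high dose (0.42 and 0.53). In day-20 maternal liver they parted. Fen1 had -0.175 at the low dose, -0.209 at the high dose and -0.023 with retinoic acid there, and Pold1 had 0.012, -0.0047 and -0.195. Pold1 and Pold3, subunits of 1 enzyme, had an r of -0.37. Top2a had 0.28 with Fen1, 0.41 with Pold1 and -0.59 with Tp53bp1. Of 208 probes with a value in all groups, the ones most like Pold1 were Rfc5 (0.83), Fen1 (0.81) and Plcg1, a phospholipase of growth factor signalling (0.80). Those most like Fen1 were a probe that the files call MMP6 and that matched Mphosph6 (0.82), Pold1 (0.81) and Rfc3 (0.77).

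Top2a was most like Jun (0.77), Ybx3, a DNA- and RNA-binding protein (0.72), and Junb (0.67), where Jun and Junb are parts of the transcription factor AP-1. Pold3 was most like the bone morphogenetic protein Bmp4 (0.68), the placental growth factor Pgf (0.62) and the liver transcription factor Cebpb (0.62). Tp53bp1 was most like the liver transcription factor Foxa1 (0.78), the acetyltransferase Nat1 (0.69) and the cytochrome Cyp2c13 (0.63). These values describe 15 group means that share arrays within a group and array batches between groups.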

How the data were processed

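Per the labels, the Cy3 channel holds vehicle RNA and the Cy5 channel that of treated rats. For each channel of an array, the authors deposited the intensity of every spot and of its local background, without background subtraction, and per the file headers these came from image quantification by fixed circles. The authors also deposited a table with 1 log2 ratio of treated over vehicle per grid position. How it was made is not given in the sources used here. Its grid order was found by correlation with the spot ratios (median r 0.896 per array, against at most 0.0799 in 255 shifted orders), and it served as an alternative, centred on each array's median.

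With limma 3.58.1 in R 4.3.3, intensities were background-corrected (normexp, offset 50) and log2 ratios normalized by loess within each array. Control and marked spots had weight 0, and up to 4 spots per probe were averaged. A probe counted as above background if a share of 0.5 or more of its spots exceeded the local background by 2 SD. Probes that were so in either channel on 2 or more arrays were tested. Of the 170 values of the 5 genes, 145 rest on 4 spots and 3 on 1 spot. Group means of the 34 arrays were fitted for all 239 named probes (prior degrees of freedom 3.34), 7 of which were on batch C alone, with 37 contrasts. P-values are two-sided, adjusted per contrast over all probes by the Benjamini-Hochberg method, and called under 0.05. Vehicle levels (Cy3, Aquantile scaling) were fitted by tissue and day with array batch as a term, in 4 planned contrasts and the other pairs of tissues added later. The small number of arrays limits the precision. The code was tested on simulated data.

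Besides the 5 genes, those named were the 3 probes most like each in mean ratio, and up to 3 genes per comparison with the smallest adjusted p from the list of related genes. Further genes of that list, Rfc3, Rfc5 and Rad17 as its additions by probe name, the probes alike in vehicle level and the markers named were chosen after their values were seen. Of the list of related genes, 1 is not reported here. The members, lists and tests were chosen with earlier results of these data known.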

Additional observations from a re-analysis of the deposited data

Results flagged for a closer look

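Of 35 groups of 4 or more arrays, 2 had an array far from its group, and chance gives about 1 in 20. Both were vehicle levels of Tp53bp1. In the day-12 embryo, 1 array of batch B stood at 8.75 while the other 7 lay between 10.47 and 10.80, a gap of 0.837 of the range. In day-20 maternal liver, 1 array of batch B stood at 8.13 and the other 5 between 6.87 and 7.10, a gap of 0.814 of the range.

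In the comparisons of response between tissues or days, from 10.9% to 46.9% of all probes were called. The difference in response between tissues or days passed limma's test for 16 of 60 comparisons of the 5 genes, on the log2 scale. At the low dose these were Fen1 (0.306) and Pold1 (0.313) in embryo liver minus maternal liver, Pold3 in the embryo minus maternal liver on day 12 (-0.467), and Top2a (0.764) and Pold3 (-0.395) in maternal liver of day 20 minus day 12. At the high dose they were Fen1 (0.629) and Pold1 (0.538) in embryo liver minus maternal liver, and Fen1 (-0.469), Pold1 (-0.512) and Pold3 (0.512) in bone minus embryo liver. With retinoic acid they were Top2a (0.553) and Pold3 (0.466) in the embryo minus maternal liver on day 12, Pold1 (0.317) in embryo liver minus maternal liver, Pold1 (-0.285) and Pold3 (0.515) in bone minus embryo liver, and Top2a (0.932) in maternal liver of day 20 minus day 12.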

How the results depend on the processing

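Of 62 calls of the 5 genes over all comparisons, 16 held under each alternative and 15 of these also with each array left out. Of 143 comparisons not called, 95 were not called under any alternative. With arrays left out in turn, the count of calls against vehicle ran from 19 to 21 (21 with all), between doses from 0 to 1 (1), between compounds from 5 to 8 (8), between tissues or days from 14 to 17 (16), and in vehicle level from 15 to 16 (16). A random block for array batch (correlation 0.387) gave 11 calls against vehicle and 3 between doses, and one for quantification session, added after seeing the data, gave 11 and 3. Only the arrays of the same tissue and day gave 3 calls between doses, no background correction 2, and an offset of 16 gave 0. Without normalization within arrays, the median of all probes lay between -1.05 and 0.446 by array. There were then 13 calls against vehicle, 0 between doses, 3 between compounds and 2 between tissues or days. Signs turned there for Tp53bp1 (-0.163 in day-12 and -0.762 in day-20 maternal liver) and Top2a (-0.655 in day-20 maternal liver) with retinoic acid, Pold1 in embryo liver (-0.107 low dose, -0.232 retinoic acid), the low-dose difference of embryo from maternal liver (Fen1 -0.127, Pold1 -0.183) and the high-dose difference of bone from embryo liver (Fen1 0.00161). The deposited log2 ratios gave 0 calls between doses, 1 between compounds and 8 between tissues or days. Signs turned there for Top2a in the embryo (0.466 low dose, 0.343 high dose) and in bone with retinoic acid (0.334), and with retinoic acid for Pold3 in embryo liver (0.00242) and against maternal liver (0.506), and for Pold1 in bone (0.0751). The cause of these changes was not tested. No paired analysis was possible because the arrays are numbered in accession order, which pairs no arrays across groups.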

Other observations

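Vehicle levels of the related genes were compared by their medians, without a test. Rfc3, the clamp loader subunit, had 11.28 in the day-12 embryo, 9.89 in embryo liver, 9.34 in bone, 8.02 in day-12 and 7.88 in day-20 maternal liver, which is the order of Top2a. Gadd45a stood apart, with its highest median in embryo liver (11.97), then 10.53 in day-20 maternal liver, 9.92 in the embryo, 9.90 in day-12 maternal liver and 8.56 in bone.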
